A study of Mus musculus with 9 samples.

Results

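Retinoic acid signalling was followed through 9 genes in bulk RNA sequencing of the mouse coronal suture, a fibrous seam across the skull roof. The genes were chosen by name from the 43644 genes of the deposited table. They are the synthesis enzymes Rdh10, Aldh1a1 and Aldh1a3, the degrading enzymes Cyp26b1 and Cyp26a1, the binding protein Crabp1, and the nuclear receptors Rara, Rarb and Rarg. The 9 libraries came from C57BL/6 mice aged 7 months and formed 3 groups of 3. The group WT was wild type without surgery. The group MUT was Twist1+/- without surgery. The group REG was Twist1+/- with suture regeneration surgery at 1 month of age, so REG and MUT shared the genotype and differed by the surgery. The labels do not describe the Twist1 allele, the material used in the surgery, or whether each library came from 1 animal, so p-values measure only the spread between these libraries, which may be technical.

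Retinoic acid is made from vitamin A in a pair of oxidation steps. Retinol dehydrogenases such as Rdh10 turn retinol into retinaldehyde, and the Aldh1a enzymes turn retinaldehyde into retinoic acid. The Cyp26 enzymes break it down, and Crabp proteins carry it in the cytoplasm. In the nucleus it binds the receptors Rara, Rarb and Rarg, which pair with retinoid X receptors on DNA. Twist1 is a transcription factor, and loss of a single copy is known to cause premature fusion of the coronal suture. Loss of Cyp26b1 is likewise linked to fusion of skull sutures. Rarg is the receptor best known from cartilage and other skeletal tissue.

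Retinoic acid receptors are known to bind direct repeats of a hexamer, and repeats in the promoters of Rarb and Cyp26a1 are the textbook sites through which retinoic acid raises its own receptor and its own degrading enzyme. RefSeq promoters of build GRCm38.p6 were searched on both strands, from 250 bases before to 50 bases after each start. The search was for pairs of a hexamer (AGGTCA, otherwise AGTTCA, or else GGGTCA, or lastly GGTTCA) in the same direction, 1, 2 or 5 bases apart. The table held 12 promoters for 7 of the 9 genes. A repeat was found in 2 of the 7 genes, Rarb and Cyp26a1, and both were spaced by 5 bases. Over all 32851 promoters of the same length a repeat spaced by 5 occurred in 0.0974%, spaced by 2 in 0.268% and spaced by 1 in 0.222%. The stretch of 250 bases before the Rarb start lies at chr14:16575477-16575726 on the minus strand. That start is inside the annotated gene, and the repeat is at -53 to -37 from it. The stretch of 250 bases before the Cyp26a1 start lies at chr19:37697558-37697807 on the plus strand, with the repeat at -32 to -16 on the opposite strand. A match of letters is a description and not a measured binding site. The 2 stretches are shown 5′ to 3′ because their repeats set these 2 genes apart by sequence from the other 5 searched, with the hexamers in capitals.
Rarb: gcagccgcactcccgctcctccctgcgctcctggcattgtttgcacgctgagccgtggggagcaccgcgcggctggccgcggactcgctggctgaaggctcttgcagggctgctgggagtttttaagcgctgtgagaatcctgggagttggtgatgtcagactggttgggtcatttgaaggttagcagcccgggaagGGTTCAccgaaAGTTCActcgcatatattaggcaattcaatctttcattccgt
Cyp26a1: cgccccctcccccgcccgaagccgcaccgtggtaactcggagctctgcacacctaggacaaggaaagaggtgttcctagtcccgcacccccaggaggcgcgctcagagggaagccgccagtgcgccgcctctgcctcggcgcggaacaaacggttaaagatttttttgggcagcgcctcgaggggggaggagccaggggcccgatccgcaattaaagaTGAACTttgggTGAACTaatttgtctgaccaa

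Twist1 was read first, beside the labelled genotype. Twist1 read 16.2, 23.3 and 23.1 in WT, against 0.987, 8.08 and 0.548 in MUT and 3.76, 9.19 and 12.2 in REG, on the upper-quartile scale of the deposited values, and every Twist1+/- library lay below every WT library. The estimated reads per library were 16356391 to 20019712 in WT, 2945636 to 10894209 in MUT and 18276494 to 39377876 in REG. A background was read from 1747 olfactory and vomeronasal receptor genes, whose known site of expression is not bone: at their median read density, background over all exons would make up 0.577 to 0.810% of reads in WT and 0.479 to 0.768% in REG, but 7.00 to 22.2% in MUT. For each gene the ratio of its reads to this background at its own exon length is therefore given as times background. Twist1 stood at 311.5 to 552 times background in WT and 106 to 413 times in REG. In MUT replicates 1 and 3 it stood at 1.81 and 1.17 times, near background, and in MUT replicate 2 at 26.6 times. Twist1 changed by -3.26 ± 0.76 (SE) on the log2 scale in MUT against WT (adjusted p = 0.0109, limma). REG, with the same genotype label as MUT, gave -1.40 ± 0.76 against WT (adjusted p = 0.567, limma). These values do not settle the genotype. Defining markers of bone were present in all 3 groups: 8 osteoblast markers summed to 37745 to 60181 RPM (estimated reads scaled to library size) in WT, 5761 to 38522 in MUT and 27787 to 52227 in REG, and 7 of the 8 fell in MUT against WT, as did 6 of 8 suture mesenchyme markers. The sums of 8 neuron and glia markers (24.6 to 46.3 in WT, 560 to 1503 in MUT, 22.9 to 77.8 in REG), of 8 keratinocyte markers (20.1 to 29.7, 307 to 853, 17.3 to 32.1) and of 8 B cell markers (63.8 to 168, 1842 to 5972, 145 to 291) were higher in every MUT library than in any other. In MUT against WT 4 of the 8 neuron and glia markers rose, 2 of the 8 keratinocyte markers rose and 1 fell, and 2 of the 8 B cell markers rose, where 20.5% of all genes tested rose and 14.6% fell. Mitochondrial genes made up 9.96 to 13.5% of estimated reads in WT, 2.01 to 4.78% in MUT and 9.70 to 15.5% in REG. No marker of these lists was at 0 in all libraries. The part of the background, of the mitochondrial share and of these cell types in the results below was not tested. The library names set REG replicates 1 and 2 apart: they are written in another form, and their sample numbers repeat those of WT replicates 2 and 3, while REG replicate 3 continues the numbering of WT and MUT. The labels do not say whether these 2 libraries were prepared or sequenced separately, and no WT or MUT library is named that way, so such a difference cannot be told apart from the surgery for them. With REG replicate 3 as the only REG library, REG against MUT gave 2.25 for Rarg (adjusted p = 0.0123), 1.34 for Cyp26b1 (adjusted p = 0.101) and 1.29 for Rdh10 (adjusted p = 0.119, limma), beside 1.83, 0.06 and 0.10 with all 3. The name of MUT replicate 2 also has a form of its own. In bulk tissue, fewer cells of a type and less RNA per cell cannot be told apart.

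Rarg and Rdh10 fell in MUT against WT, and Rarg rose in REG against MUT. No other change of the 8 genes tested passed an adjusted p of 0.05 (limma on log2 values, Benjamini-Hochberg over 29107 genes tested), and Crabp1 was too low to test. In MUT against WT the share called was 2 of 8, or 25%, both lower, where 35.1% of all genes tested were called, 20.5% higher and 14.6% lower. In REG against MUT it was 1 of 8, or 12.5%, where 36.6% of all genes were called, 11.8% higher and 24.8% lower. In REG against WT it was 0 of 8, where 0% of all genes were called by limma; at an unadjusted p under 0.05 there were 1 of the 8 (Rdh10) and 2755 of all genes. The share of the 8 genes called in either direction was below that of all genes in both of these comparisons. The median log2 change of the 8 genes was -0.76 in MUT against WT, -0.47 in REG against MUT and -0.98 in REG against WT, beside 0.18, -0.36 and -0.18 over all genes tested. The split of calls over all genes depended on scaling: in MUT against WT 5964 were higher and 4261 lower, but 11734 and 876 when scaled by total reads and 3768 and 5149 with trimmed-mean scaling. In REG against MUT 3432 were higher and 7221 lower, but 982 and 11455 by total reads and 5906 and 4163 by trimmed mean. Of the member calls, Rarg in MUT against WT was the one kept under every scaling. On the deposited scale, all MUT libraries lay below all WT libraries in 4 of the 8 genes and in 7534 of all 29107. They lay above in 0 and 9486. All REG libraries lay below all MUT libraries in 2 of the 8 and 8293 of all genes, and above in 1 and 4075. For REG and WT these were 2 and 3520 below, and 0 and 1172 above. Such separation alone therefore does not set a gene apart. Each group enters 2 of the 3 comparisons, so their values are not independent.

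**Figure D1:**
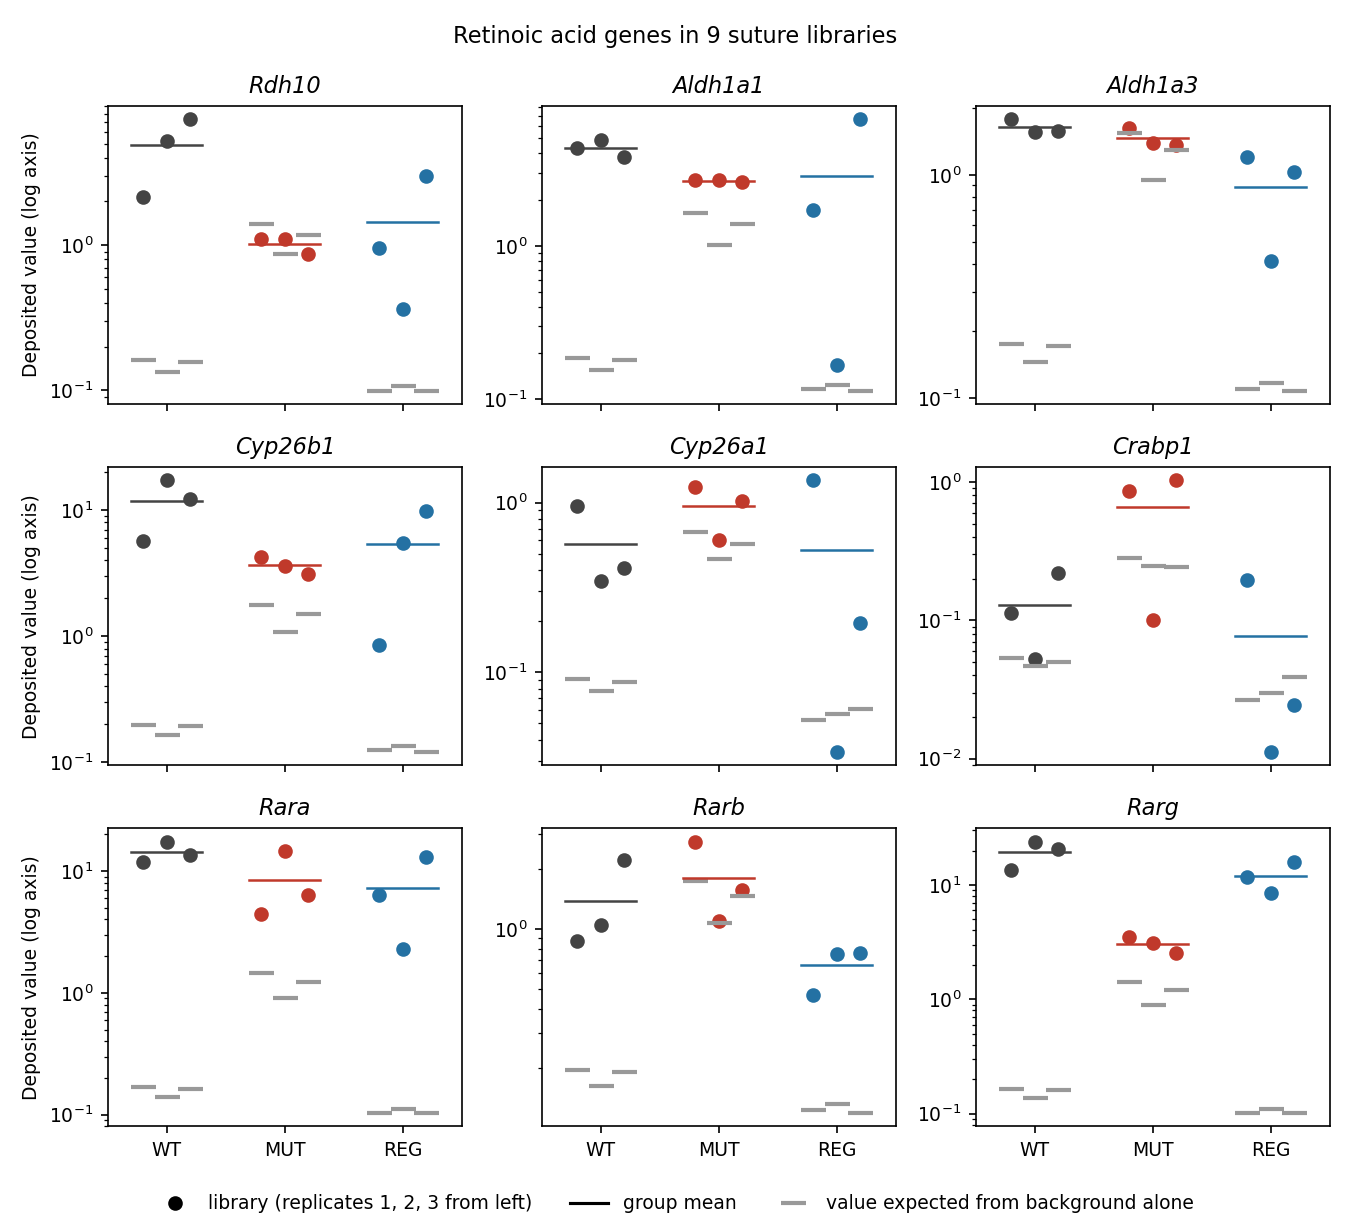
Deposited value of each gene (log axis, upper-quartile scale) in each of the 9 libraries, with the group mean as a line and, as a grey dash, the value that background alone would give at that gene's exon length. Rarg lay far above background in WT and REG and at 2.12 to 3.81 times background in MUT. Rdh10 reached background in MUT. Rarb (1.03 to 1.58 times), Aldh1a3 (1.05 to 1.52 times) and Cyp26a1 (1.37 to 1.87 times) were near it there.

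Among the synthesis genes, Rdh10 (chromosome 1, 16105774 to 16133734, plus strand, GRCm38), the dehydrogenase that supplies most retinaldehyde in the embryo, read 2.14, 5.19 and 7.33 in WT, against 1.10, 1.10 and 0.863 in MUT and 0.951, 0.366 and 3.01 in REG. On the deposited scale all MUT libraries lay below all WT libraries, and REG spanned values from below MUT to within WT. In RPM, MUT replicates 1 and 3 (6.08 and 5.11) lay above WT replicate 1 (4.57). Rdh10 fell by 1.78 ± 0.58 (SE) on the log2 scale in MUT against WT, a 3.44-fold change (adjusted p = 0.0391, limma). The MUT reads were 0.732 to 1.30 times background, against 15.9 to 55.1 times in WT and 3.72 to 39.6 times in REG, so the MUT level cannot be told from background. The call was lost in 10 of 20 alternatives, among them scaling by total reads (-0.79, adjusted p = 0.289, limma). It was kept after background subtraction (-2.98, adjusted p = 0.0113, limma). That subtraction set MUT replicates 1 and 3 to 0, as their reads were 0.789 and 0.732 times background. The size of that fall therefore depends on the pseudocount added before taking logs. REG against MUT gave 0.10 ± 0.58 (adjusted p = 0.911), -0.59 by total reads and -0.49 without REG replicate 3, and REG against WT -1.68 ± 0.58 (adjusted p = 0.508, limma). Without REG replicate 3, the highest of its group, REG against WT gave -2.27 (adjusted p = 0.0387).

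Aldh1a1 (chromosome 19, 20492715 to 20643465, plus strand), a retinaldehyde dehydrogenase, read 4.33, 4.91 and 3.79 in WT, against 2.68, 2.67 and 2.601 in MUT and 1.70, 0.166 and 6.66 in REG. On the deposited scale the WT and MUT libraries each kept to a narrow range and did not overlap. REG replicate 2 was the lowest and REG replicate 3 the highest of all 9 on that scale. In RPM, WT and MUT overlapped, and REG replicate 3 (14.89) lay below MUT replicates 1 and 3 (14.98 and 15.64). The log2 change in MUT against WT was -0.64 ± 0.74 (adjusted p = 0.526, limma), with an error that the REG spread enters through the shared fit. MUT lay at 1.64 to 2.82 times background, WT at 23.9 to 38.2 times and REG at 1.37 to 74.2 times. Scaling by total reads turned MUT against WT to 0.49 (adjusted p = 0.616). REG against MUT gave -0.61 ± 0.74 (adjusted p = 0.554) and, with REG replicate 3 as the only REG library, 1.22 (adjusted p = 0.0446). REG against WT gave -1.24 ± 0.74 (adjusted p = 0.593) and, without REG replicate 3, -2.16 (adjusted p = 0.0495, limma). The near-identical neighbour Aldh1a7 may share reads with Aldh1a1, which makes its level uncertain; Aldh1a7 itself read 0.0264 to 0.563 in WT, 0.599 to 1.35 in MUT and 0.0353 to 1.06 in REG.

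Aldh1a3 (chromosome 7, 66390890 to 66427517, minus strand), a second enzyme of this step, read 1.78, 1.56 and 1.58 in WT, against 1.63, 1.40 and 1.36 in MUT and 1.204, 0.412 and 1.03 in REG. On the deposited scale all REG libraries lay below all libraries of both other groups. In RPM, REG stayed below MUT, but REG replicate 1 (3.26) lay above WT replicate 2 (2.90). The log2 change was -0.61 ± 0.35 in REG against MUT (adjusted p = 0.203) and -0.74 ± 0.35 in REG against WT (adjusted p = 0.534, limma). MUT against WT gave -0.13 ± 0.35 (adjusted p = 0.791), but the MUT reads were 1.05 to 1.52 times background, where WT had 10.5 to 12.8 times and REG 3.78 to 12.03 times. Scaling by total reads made the REG against MUT value -1.35 (adjusted p = 0.0230), but it was 0.13 with quantile scaling and 0.62 after background subtraction. MUT against WT turned to 0.88 by total reads.

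Aldh1a2, the main retinaldehyde dehydrogenase of embryonic mesenchyme, is not among the 9 genes and was read as their reference. It had 22.03, 28.2 and 43.4 in WT, against 4.78, 15.6 and 2.04 in MUT and 6.14, 6.27 and 16.96 in REG. Neither Twist1+/- group overlapped WT on the deposited scale. Scaled to library size and exon length, the highest MUT library (23.2) lay above the lowest WT library (21.1). Aldh1a2 fell by 2.38 ± 0.67 on the log2 scale in MUT against WT (adjusted p = 0.0223, limma). The fall was -1.21 when scaled by total reads (adjusted p = 0.113) and -1.22 after background subtraction (adjusted p = 0.223). It lost its call without MUT replicate 1 (adjusted p = 0.0690), MUT replicate 3 (0.0918), WT replicate 2 (0.0671) or WT replicate 3 (0.0833). REG against WT was -1.74 ± 0.67 (adjusted p = 0.512) and REG against MUT 0.64 ± 0.67 (adjusted p = 0.488, limma).

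Of the degrading enzymes, Cyp26b1 (chromosome 6, 84571414 to 84593908, minus strand) read 5.66, 17.2 and 12.3 in WT, against 4.28, 3.59 and 3.12 in MUT and 0.859, 5.45 and 9.80 in REG. All MUT libraries lay below all WT libraries. The lowest value of the 9 was REG replicate 1, and the other REG libraries lay between MUT and the higher WT values. The log2 change was -1.46 ± 0.71 in MUT against WT (adjusted p = 0.134), 0.06 ± 0.71 in REG against MUT (adjusted p = 0.958) and -1.41 ± 0.71 in REG against WT (adjusted p = 0.548, limma). The MUT against WT value passed the threshold when REG replicate 1 was left out (adjusted p = 0.0341) or when WT and MUT were fitted without REG (adjusted p = 0.0186), and was -0.30 when scaled by total reads. The sign of REG against MUT changed in 7 of 22 alternatives. Reads were 32.98 to 124 times background in WT, 2.09 to 3.54 times in MUT and 7.32 to 101 times in REG.

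Cyp26a1 (chromosome 19, 37697798 to 37701536, plus strand), whose promoter holds the repeat shown above, read 0.951, 0.343 and 0.413 in WT, against 1.24, 0.602 and 1.03 in MUT and 1.35, 0.0338 and 0.196 in REG. On the deposited scale REG replicate 1 was the highest library of all 9 and REG replicate 2 the lowest. In RPM, REG replicate 1 (3.66) lay below MUT replicates 1 and 3 (6.87 and 6.09). In REG replicate 1 the reads were 31.2 times background, in REG replicate 2 they were 0.497 times, and in MUT 1.37 to 1.87 times. The log2 change was 0.52 ± 0.54 in MUT against WT (adjusted p = 0.475), -0.83 ± 0.54 in REG against MUT (adjusted p = 0.260) and -0.30 ± 0.54 in REG against WT (adjusted p = 0.862, limma). Quantile scaling turned MUT against WT to -0.20. Without REG replicate 1, REG against MUT gave -1.44 (adjusted p = 0.0324). On the deposited scale, REG replicate 1 thus held the highest Cyp26a1 together with the lowest Cyp26b1.

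Among the receptors, Rarg (chromosome 15, 102234938 to 102257517, minus strand) read 13.5, 23.9 and 20.5 in WT, against 3.50, 3.09 and 2.52 in MUT and 11.7, 8.57 and 15.7 in REG. Every MUT library lay below every library of the other groups, and REG overlapped WT. Rarg fell by 2.504 ± 0.37 on the log2 scale in MUT against WT, a 5.67-fold change (adjusted p = 0.00195, limma). It rose by 1.83 ± 0.37 in REG against MUT, a 3.55-fold change (adjusted p = 0.00579, limma). REG against WT gave -0.68 ± 0.37 (adjusted p = 0.569). The fall in MUT was called in 21 of 21 alternatives, at -2.77 to -1.35. It was -2.47 with MUT replicate 2, the MUT library of least background, as the only MUT library. That library was the shallowest, with 2945636 estimated reads, and held 30 Rarg reads, of which 7.87 would be expected from background. The fall was smallest with scaling by total reads, which also took the all-gene median from 0.18 to 1.11. The 11449 genes that passed a filter 10 times stricter had a median of -0.99 in the same comparison. The rise in REG was called in 19 of 22 alternatives; it was 1.02 when scaled by total reads (adjusted p = 0.0556), 1.43 after background subtraction (adjusted p = 0.0607) and 1.79 if MUT replicate 2 stood for its group (adjusted p = 0.124). Reads were 99.4 to 217 times background in WT, 2.12 to 3.81 times in MUT and 87.5 to 203 times in REG.

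Rara (chromosome 11, 98927818 to 98974942, plus strand), the receptor found in most tissues, read 11.8, 17.4 and 13.6 in WT, against 4.43, 14.6 and 6.39 in MUT and 6.39, 2.29 and 13.2 in REG. All groups overlapped. The log2 change was -0.88 ± 0.61 in MUT against WT (adjusted p = 0.280), -0.33 ± 0.61 in REG against MUT (adjusted p = 0.703) and -1.22 ± 0.61 in REG against WT (adjusted p = 0.547, limma). The MUT against WT value turned to 0.32 when scaled by total reads, 0.27 after background subtraction and 0.04 with MUT replicate 2 alone. That of REG against MUT turned to 0.29 with trimmed-mean scaling, 0.13 without MUT replicate 2, 0.28 without REG replicate 2 and 0.78 with REG replicate 3 alone. MUT replicate 2 kept Rara at 17.97 times background while its Rarg was at 3.81 times.

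Rarb (chromosome 14, 16430839 to 16819156, minus strand), the receptor whose promoter holds the other repeat, read 0.873, 1.05 and 2.23 in WT, against 2.76, 1.10 and 1.58 in MUT and 0.469, 0.749 and 0.763 in REG. On the deposited scale all REG libraries lay below all WT and all MUT libraries. In RPM, REG stayed below MUT, but REG replicate 2 (2.18) lay above WT replicates 1 and 2 (1.83 and 1.94). The log2 change was 0.32 ± 0.42 in MUT against WT (adjusted p = 0.572), -1.03 ± 0.42 in REG against MUT (adjusted p = 0.0796) and -0.70 ± 0.42 in REG against WT (adjusted p = 0.592, limma). Scaling by total reads made REG against MUT -1.77 (adjusted p = 0.0213), and background subtraction made it -0.08 (adjusted p = 0.951). MUT against WT turned to -0.04 with quantile scaling, -0.38 after background subtraction and -0.18 with MUT replicate 2 alone. The MUT reads were 1.03 to 1.58 times background, against 5.03 to 13.2 times in WT and 4.03 to 7.75 times in REG. Exons of Top2b on the opposite strand share 34.1% of the exon bases of Rarb, and the antisense gene Gm48162 shares 4.31%. Whether reads were counted by strand is not given in the sources used here, so reads of these genes cannot be told apart there.

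**Figure D2:**
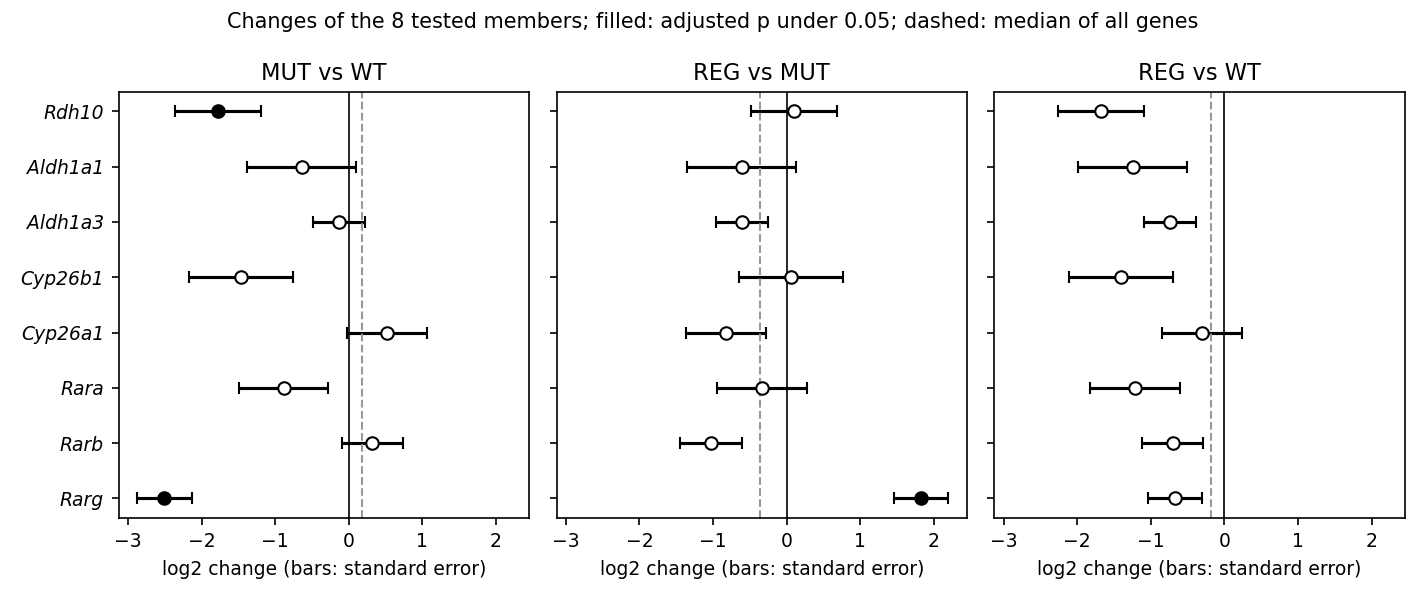
Log2 change with its standard error for the 8 genes tested, in 3 comparisons of 3 libraries against 3 (limma). Filled points passed an adjusted p of 0.05, and the dashed line is the median of all 29107 genes tested. The filled points are Rarg and Rdh10 in MUT against WT and Rarg in REG against MUT.

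Crabp1 (chromosome 9, 54764748 to 54773110, plus strand), a cytoplasmic carrier of retinoic acid, was at or near 0 in most libraries. It held 3.0, 1.0 and 8.2 estimated reads in WT, against 52.0, 0.002 and 47.9 in MUT and 20, 0 and 0 in REG. The 2 MUT libraries with the most background were the 2 that passed the filter, at 3.21 and 4.53 times background, and the gene was not tested. Its relative Crabp2 read 0.439 ± 0.104 (SD, n = 3) in WT, 0.711 ± 0.0829 in MUT and 0.707 ± 0.876 in REG, and its log2 change in MUT against WT was 0.42 ± 0.50 (adjusted p = 0.530, limma).

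Levels of different genes were compared per exon length, as RPKM (estimated reads per kb of exon, scaled to the reads of the library). In WT the order of the means was Rarg (9.18 ± 2.02, SD, n = 3), Rara (6.65 ± 0.861), Cyp26b1 (4.39 ± 1.94), Rdh10 (2.37 ± 1.29), Aldh1a1 (1.79 ± 0.166), Aldh1a3 (0.717 ± 0.0974), Cyp26a1 (0.574 ± 0.380), Rarb (0.531 ± 0.300) and Crabp1 (0.268 ± 0.228). Within each WT library Rarg exceeded Rara, Rara exceeded Cyp26b1, Cyp26b1 exceeded Rdh10, Aldh1a1 exceeded Aldh1a3 and Rarb exceeded Crabp1. The other neighbours in this order changed places between libraries. Across the WT libraries, only Aldh1a1 and Aldh1a3 were neighbours whose ranges did not overlap. Aldh1a2, at 28.2 ± 10.3, lay above all 9 genes in every WT library.

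Shares within a library do not depend on how libraries are scaled to each other. Rarg made up 52.5, 57.3 and 57.6% of the 3 receptors per kb in WT, as against 34.8, 16.7 and 25.04% in MUT and 63.9, 75.2 and 53.9% in REG. Its share was lower in every MUT library than in any WT or REG library, and WT and REG overlapped. The mean share of Rara was 41.0 ± 3.71% (SD, n = 3) in WT, 61.4 ± 17.9% in MUT and 32.6 ± 12.3% in REG. Rarb made up 3.22 ± 1.60%, 13.1 ± 8.84% and 3.11 ± 1.84% in the same order. With background subtracted, Rarg made up 56.1, 23.5 and 64.9% on average, and the MUT share of Rarb was 5.16 ± 7.74%. An exact permutation test of 3 against 3 libraries cannot go below p = 0.1, so the shares were not tested.

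Aldh1a2 made up most of the Aldh1a1 to Aldh1a3 reads per kb in every library, with a mean of 91.2 ± 3.06% (SD, n = 3) in WT, 70.7 ± 18.6% in MUT and 86.8 ± 7.88% in REG, and 84.3 ± 12.3% in MUT with background subtracted. Cyp26b1 made up 53.1, 92.8 and 86.7% of the Cyp26 reads per kb in WT, as against 43.9, 52.0 and 30.9% in MUT, and 16.6, 91.6 and 89.6% in REG. Each MUT share lay below each WT share, but with background subtracted the shares were 54.1, 94.2 and 88.6% in WT and 56.6, 66.8 and 28.9% in MUT, and the groups overlapped. REG replicate 1 lay below all MUT libraries in both. In REG replicate 1, 71.0% of the Cyp26 reads per kb were Cyp26a1.

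**Figure D3:**
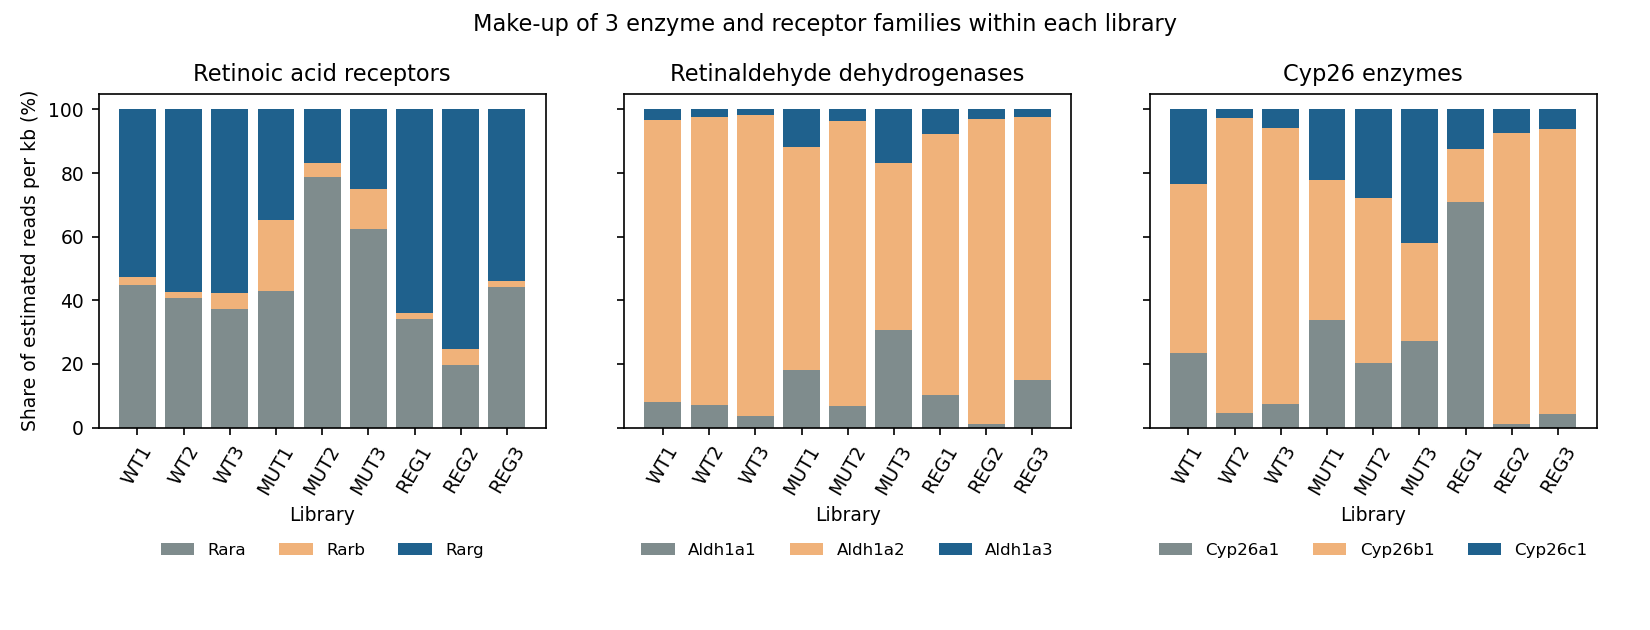
Share of estimated reads per kb (y axis, %) of each gene within 3 families, in each of the 9 libraries. Rarg held 16.7 to 34.8% of the receptors in MUT and 52.5 to 75.2% in WT and REG, Aldh1a2 was the largest part of its family in all 9 libraries, and REG replicate 1 was the library with mostly Cyp26a1 among the Cyp26 enzymes.

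Genes around the 9 were read from 3 lists: 32 genes of retinoid transport and metabolism, 17 retinoid X receptors and co-regulators, and 26 genes known to respond to retinoic acid. Most called genes of the retinoid X receptor list changed in the same direction as Rarg. In MUT against WT 12 of its 17 genes fell and 1 rose, with a median log2 change of -1.46, and in REG against MUT 6 rose and 1 fell, with a median of 0.98. Rxra, the widespread partner of the retinoic acid receptors, read 30.8 ± 4.46 (SD, n = 3) in WT, 6.36 ± 1.85 in MUT and 22.97 ± 8.89 in REG, a log2 change of -2.24 ± 0.40 in MUT against WT (adjusted p = 0.00388) and 1.75 ± 0.40 in REG against MUT (adjusted p = 0.00941, limma). Rxrb fell by 1.72 ± 0.41 (adjusted p = 0.0123) and rose by 1.92 ± 0.41 (adjusted p = 0.00739). The co-repressor Ncor1, which helps to hold unliganded receptors silent, fell by 2.12 ± 0.43 (adjusted p = 0.00616, limma). Over all genes 14.6% fell in MUT against WT and 11.8% rose in REG against MUT. The 12 falls were lost when scaled by total reads or after background subtraction, where 0 of 17 fell, and 1 of 17 fell with quantile scaling. Likewise 0 of 17 rose in REG against MUT in the former pair of settings, 1 with quantile scaling and 13 with trimmed-mean scaling, and the median was 0.13 by total reads. All 17 genes were also among the 11449 of the stricter filter, whose median was -0.99.

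Rxrg, the retinoid X receptor known from muscle and brain, was the gene of this list that rose in MUT. It read 0.879, 0.693 and 0.534 in WT, against 7.63, 32.7 and 18.03 in MUT and 0.549, 0.479 and 0.219 in REG. Each MUT library lay far above each of the other 6. The log2 change was 3.999 ± 0.50 in MUT against WT (adjusted p = 0.00123) and -4.46 ± 0.50 in REG against MUT (adjusted p = 0.00101, limma). The MUT reads were 10.1 to 76.9 times background, the rise was 5.10 when scaled by total reads and 5.37 after background subtraction, and it was 4.96 (adjusted p = 0.00818) with MUT replicate 2 as the only MUT library. The neuron and glia marker sums given above were also higher in MUT, whereas skeletal muscle markers summed to 12.5 to 131 RPM in WT, 85.5 to 208 in MUT and 81.9 to 926 in REG; their part in the Rxrg level was not tested.

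Of the transport and metabolism genes 7 rose and 3 fell in MUT against WT (median 0.09), and 1 rose and 8 fell in REG against MUT (median -0.38). The shares called, 31.2% and 28.1%, were below the 35.1% and 36.6% of all genes. The split depended on scaling: in MUT against WT 11 rose and 0 fell by total reads, 3 and 0 after background subtraction, and 6 and 5 with trimmed-mean scaling, and in REG against MUT the same settings gave 0 and 10, 0 and 3, and 3 and 5. The 3 that fell in MUT on the deposited scale were Aldh1a2 and the retinol carriers Rbp2 and Rbp4. Rbp4, which carries retinol in blood, read 7.63 ± 2.20 (SD, n = 3) in WT, 1.08 ± 0.574 in MUT and 5.01 ± 2.26 in REG, and fell by 2.52 ± 0.48 in MUT against WT (adjusted p = 0.00496, limma). The 7 that rose had median reads of 1.26 to 2.90 times background in MUT. Bco1, which cleaves carotene, rose by 2.23 ± 0.32 (adjusted p = 0.00184) at 2.68 to 5.72 times background in MUT, 1.61 to 3.21 times in WT and 4.79 to 10.8 times in REG. Aldh8a1 rose by 1.84 ± 0.37 (adjusted p = 0.00580) at 1.94 to 3.45 times in MUT against 2.40 to 6.66 times in WT, and Lrat, which stores retinol as esters, by 1.52 ± 0.32 (adjusted p = 0.00765, limma) at 1.11 to 1.38 times in MUT against 1.57 to 2.68 times in WT. The falls of smallest p in REG against MUT were those of Aldh8a1 (-2.17 ± 0.37, adjusted p = 0.00314), the retinol dehydrogenase Rdh1 (-2.02 ± 0.36, adjusted p = 0.00359), Bco1 (-1.77 ± 0.32, adjusted p = 0.00401) and Rpe65, the isomerase of the visual cycle (-1.46 ± 0.32, adjusted p = 0.00795, limma). Stra6, the receptor through which cells take up retinol, read 2.18, 0.696 and 0.795 in WT, against 4.11, 2.75 and 10.6 in MUT and 0.765, 0.892 and 0.621 in REG. It rose by 1.87 ± 0.52 in MUT against WT (adjusted p = 0.0207) and was 2.26 lower in REG against MUT on the log2 scale (-2.26 ± 0.52, adjusted p = 0.00934, limma), with 2.13 to 6.58 times background in MUT, 4.14 to 11.6 times in WT and 5.66 to 6.58 times in REG. Dhrs3, which returns retinaldehyde to retinol, read 7.39, 8.11 and 10.3 in WT, against 2.83, 1.70 and 1.51 in MUT and 5.25, 0.626 and 11.3 in REG, at -1.94 ± 0.74 in MUT against WT (adjusted p = 0.0668, limma). In REG replicate 2, Dhrs3, Rdh10, Aldh1a1, Aldh1a3, Cyp26a1 and Rara were each the lowest of the 9 libraries. The share of all genes that were lowest in REG replicate 2 was not counted, so this is not read as particular to the pathway.

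Of the genes known to respond to retinoic acid 3 rose and 5 fell in MUT against WT (median -0.07), and 4 rose and 4 fell in REG against MUT (median -0.29). The share called was 30.8% in both, below the 35.1% and 36.6% of all genes. Tgm2, a transglutaminase, read 31.9 ± 9.33 (SD, n = 3) in WT, 6.08 ± 1.41 in MUT and 26.8 ± 11.5 in REG, and changed by -2.30 ± 0.44 in MUT against WT (adjusted p = 0.00498, limma) and 1.99 ± 0.44 in REG against MUT. Rarres2, which encodes the chemokine chemerin, fell by 2.19 ± 0.43 (adjusted p = 0.00542), and the early response factor Egr1 fell by 2.51 ± 0.50 (adjusted p = 0.00571, limma). Stra8, known from germ cells entering meiosis, rose by 2.09 ± 0.43 (adjusted p = 0.00688) at 3.24 to 11.4 times background in MUT, 2.52 to 7.41 times in WT and 7.12 to 25.7 times in REG. Egr1 rose in REG against MUT by 2.54 ± 0.50 (adjusted p = 0.00523) and the integrin gene Itgb3 by 1.72 ± 0.41 (adjusted p = 0.0112), while the homeobox gene Hoxb5 fell by 1.63 ± 0.35 (adjusted p = 0.00763, limma). None of the 5 that fell in MUT was called lower when scaled by total reads or after background subtraction. Nor did the even split in REG against MUT hold: 1 rose and 8 fell by total reads (median -1.03), 0 and 1 after background subtraction, and 5 and 1 with trimmed-mean scaling. Over the 3 lists together 31 of 75 genes were called in MUT against WT and 24 of 75 in REG against MUT, or 41.3% and 32%, beside the 35.1% and 36.6% of all genes. The retinoid X receptor list by itself had 76.5% and 41.2% called. In REG against WT 0 of 75 were called by limma, with 4 at an unadjusted p under 0.05.

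**Figure D4:**
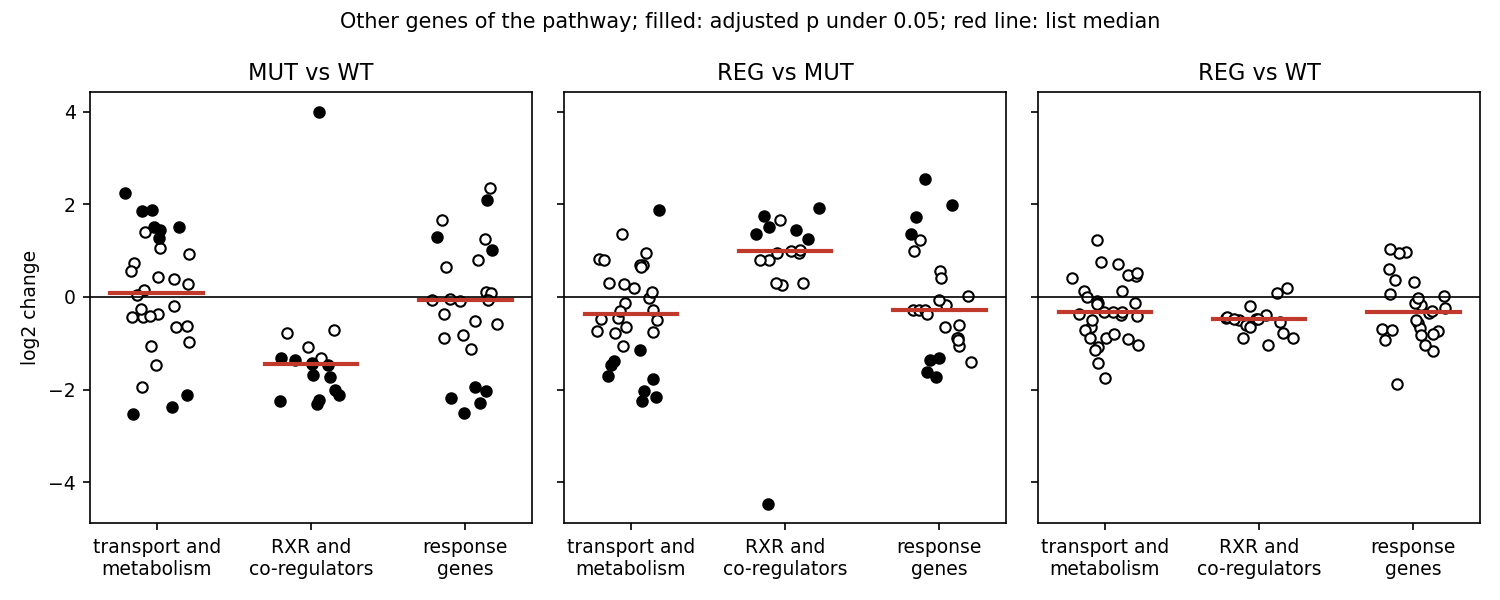
Log2 change of each gene of the 3 lists in each comparison (limma); filled points passed an adjusted p of 0.05 and the red line is the list's median. In MUT against WT 12 of 17 retinoid X receptor and co-regulator genes are filled below 0 and Rxrg stands at 3.999, and in REG against WT no point is filled.

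The genes whose pattern over the 9 libraries was most like that of a member were found by the mean absolute difference of centred log2 values, with no test. For Rarg they were Eea1 (0.0997), Plpp3 (0.101), Atp2a2 (0.118), Runx2 (0.133) and Dennd4c (0.133). Runx2, the factor required for osteoblast formation, read 54.3, 98.3 and 81.5 in WT, against 11.6, 12.4 and 9.34 in MUT and 35.1, 29.6 and 57.7 in REG. For Cyp26b1 they were Nuak1 (0.223), Wdr74 (0.239), Cltb (0.298), Ttc33 (0.307) and Arhgap12 (0.309). For Rdh10 they were Maml2 (0.211), Rhbdl3 (0.233), Synm (0.238), Eid2 (0.243) and Thsd4 (0.244). The Cyp26b1 matches were all lowest in REG replicate 1, and the Rdh10 matches were lower in every MUT library than in any WT library. These traits are those of the member itself, so they follow from the choice by likeness and are not a result. The closest match of Rarg was thus nearer than that of Cyp26b1 or Rdh10.

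In the authors' deposited table of comparisons Rarg had a log2 ratio of -2.67 (FDR 0.00425) in MUT over WT and 1.98 (FDR 0.00784) in REG over MUT. The authors' deposited table gave Rdh10 -2.26 in MUT over WT with an FDR of 0.0674, above 0.05 where limma was below, and Cyp26b1 -1.68 with an FDR of 0.155. The authors' deposited table also gave Crabp1 -3.11 in REG over MUT with an FDR of 0.0365, a gene that held 0 estimated reads in 2 REG libraries.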

How the data were processed

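Total RNA from the coronal suture was sequenced as single-end reads of 75 cycles, per the labels' protocols. STAR 2.6.1d, Partek and the build mm10 are named, per the submitters' processing notes. How reads were counted, on which annotation and with which strand setting, and what test the authors ran is not given in the sources used. The design text also names an interval after induction that the sample labels do not explain. The deposited signal values hold 43644 unnamed genes for 9 libraries, with an upper quartile of 2.76 in each. Each looks like (estimated reads + 1) multiplied by a step of its own library; many are not whole multiples, so no count test was used. The authors' deposited table gives names, p-values with an FDR, and ratios with log2 ratios per comparison. Genes were named by matching 4 summary statistics of each unnamed gene to that table, within a relative tolerance of 1e-06 (43644 of 43644 matched, and all 9 genes described here had a unique set).

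From these, limma 3.58.1 (R 4.3.3) was fitted to log2(value + 0.367271), the pseudocount being 1 millionth of the median library sum, with all 9 libraries in 1 fit, over the genes at that value in at least 3 libraries. A fold change is on that scale and understates the change of low genes. Exon lengths came from GENCODE M21 (42973 genes, 98.5%). The script was tested on simulated data. These data had no MUT background and held changes only in well-covered genes, so they do not cover genes near background in MUT. Coordinates are GRCm38. Alternatives were other scalings (total reads, trimmed mean, quantile), background subtraction (then scaled by total reads), filters, pseudocounts, a trend in limma, fits of 2 groups, a replicate block, leaving out libraries, and MUT replicate 2 or REG replicate 3 alone.

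The members, lists, and rules were chosen with earlier results of these data known. All members are named, with Twist1, per list and comparison up to 4 called genes of smallest p, Aldh1a2, Crabp2, Dhrs3, Rxra and Stra6 whatever their p, and the 5 genes most like Cyp26b1, Rarg and Rdh10. Of the genes so chosen, 1 is not reported here. Aldh1a7, Cyp26c1, Rxrb, Rbp2 and the overlapping genes were named after their values were seen.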

Additional observations from a re-analysis of the deposited data

How the results depend on the processing

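Of the 9 genes, the count called in MUT against WT was 2, and 1 with scaling by total reads, no filter, the filter 10 times stricter (which left 4 of them to test), either pseudocount, or MUT replicate 2 alone; leaving out 1 library gave 1 to 3. In REG against MUT it was 1 (Rarg, higher), but 2 with scaling by total reads and 0 after background subtraction, with 1 to 2 when 1 library was left out. The 2 by total reads were Rarb (-1.77) and Aldh1a3 (-1.35), both lower, and Rarg (1.02) was not called there. In REG against WT it was 0, with 0 to 2 when 1 library was left out, the 2 being without REG replicate 3. Aldh1a1 in REG against MUT changed sign to 1.22 with REG replicate 3 alone; the cause was not tested.

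Of the 75 other pathway genes, 31 were called in MUT against WT, and 18 with scaling by total reads, 12 with quantile scaling, 5 after background subtraction, 20 with the stricter filter (fewer genes tested) and 4 with MUT replicate 2 alone, with 13 to 39 when 1 library was left out. In REG against MUT 24 were called, and 7, 5, 11 and 1 with quantile scaling, background subtraction, the stricter filter and MUT replicate 2 alone, with 8 to 30 when 1 library was left out. In REG against WT leaving out 1 library gave 0 to 2. Over all genes 10225 were called in MUT against WT, and 5023 with quantile scaling, 4278 after background subtraction, 4895 with the stricter filter and 1777 with MUT replicate 2 alone, with 3756 to 12716 when 1 library was left out. In REG against MUT 10653 were called, and 4165, 3973, 3652 and 1494 in the same order, 6051 with REG and MUT fitted without WT, and 3646 to 11674 when 1 library was left out. In REG against WT leaving out 1 library gave 0 to 1616, the most without REG replicate 3.

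The replicate block gave 8766 and 9373 calls over all genes and the same 2, 1 and 0 members; same-numbered libraries correlated at -0.196 to 0.101, so the shared numbers are not taken to pair them. A library used alone is assumed to vary like the other groups.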
